A study of Rattus norvegicus with 30 samples.

Results

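Carnitine carries long-chain fatty acids into mitochondria, and 8 rat genes of its synthesis, uptake and shuttle were followed through a valproate dose and time series: Bbox1, Slc22a5, Cpt1a, Cpt1b, Slc25a20, Cpt2, Crat and Crot. They were taken by symbol, with every array probeset annotated with that symbol alone, which gave 12 probesets of 31042 and 8 genes of 14217. The question put to them was how the steps around carnitine respond to a drug that is known to lower carnitine in patients. Frozen primary hepatocytes of male Sprague Dawley rats (XenoTech), a non-dividing liver cell model, were grown on collagen under Matrigel and treated on day 3 of culture. Sodium valproate is a branched short-chain fatty acid given against epilepsy, and it also inhibits histone deacetylases. The 6 groups, each of 5 cultures, were water for 24 h, 0.5 mM sodium valproate for 24 h, 10 mM for 24 h, and the same 3 treatments for 48 h. Water was the vehicle of every treated culture. Each culture was a well of a 6-well plate read on its own array. The sources used here give neither the number of donor animals nor the wells that shared a plate. The p-values therefore describe the spread between cultures, which may be technical, and the part of any plate effect was not tested.

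Carnitine is made from trimethyllysine in 4 enzymatic steps, of which the last, the hydroxylation of gamma-butyrobetaine by Bbox1, takes place in liver but hardly in muscle. Cells also import carnitine from blood through the sodium-coupled transporter OCTN2, the product of Slc22a5. At the outer mitochondrial membrane CPT1 moves a long-chain acyl group from coenzyme A to carnitine, the carrier encoded by Slc25a20 exchanges the acylcarnitine for free carnitine across the inner membrane, and CPT2 returns the acyl group to coenzyme A in the matrix. Crat and Crot encode the acyltransferases for short and for medium chains, in mitochondria and peroxisomes and in peroxisomes. Liver uses the CPT1 isoform of Cpt1a, which malonyl-CoA inhibits, while Cpt1b is the muscle isoform. Valproate itself is bound to coenzyme A and carnitine, and valproylcarnitine leaves the cell.

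To show the DNA in front of genes that moved in opposite directions, the 250 bases before the annotated start of 4 members are given from RefSeq, build GRCr8. Bbox1 was the member that fell furthest, Crot and Slc22a5 rose at 10 mM at both times, and Cpt2 fell at 24 h. Each runs 5′ to 3′ on the strand of the gene, and capitals mark GGGCGG or CCGCCC, the GC box on either strand, a motif added after these data had been seen.
Bbox1: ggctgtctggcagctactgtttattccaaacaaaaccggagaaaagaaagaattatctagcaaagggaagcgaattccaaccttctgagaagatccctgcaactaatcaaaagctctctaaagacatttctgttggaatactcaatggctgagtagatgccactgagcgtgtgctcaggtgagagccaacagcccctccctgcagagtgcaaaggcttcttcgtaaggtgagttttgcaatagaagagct
Crot: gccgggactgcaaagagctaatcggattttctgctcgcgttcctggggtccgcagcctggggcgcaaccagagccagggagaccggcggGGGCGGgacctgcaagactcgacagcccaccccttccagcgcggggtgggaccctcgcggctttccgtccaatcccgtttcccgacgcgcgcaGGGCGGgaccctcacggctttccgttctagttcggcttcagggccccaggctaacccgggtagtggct
Slc22a5: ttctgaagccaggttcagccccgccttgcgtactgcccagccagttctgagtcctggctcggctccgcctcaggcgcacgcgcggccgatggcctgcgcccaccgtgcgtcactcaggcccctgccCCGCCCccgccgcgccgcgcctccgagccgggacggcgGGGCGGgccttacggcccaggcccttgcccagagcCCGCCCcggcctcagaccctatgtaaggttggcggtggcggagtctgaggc
Cpt2: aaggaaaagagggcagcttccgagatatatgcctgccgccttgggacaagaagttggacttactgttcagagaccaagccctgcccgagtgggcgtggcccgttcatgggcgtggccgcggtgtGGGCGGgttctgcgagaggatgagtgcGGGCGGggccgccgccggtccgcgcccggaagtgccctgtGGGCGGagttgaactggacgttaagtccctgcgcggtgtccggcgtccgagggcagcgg
They lie at chr3:117326065-117326314 on the minus strand (Bbox1), chr4:26052874-26053123 on the plus strand (Crot), chr10:38536073-38536322 on the minus strand (Slc22a5) and chr5:127910819-127911068 on the minus strand (Cpt2). The Bbox1 window was poor in G and C, at 45.6%, with 4 CpG and no GC box. The Crot window held 68.0% G and C, 25 CpG and 2 GC boxes. For Slc22a5 these were 74.4%, 28 CpG and 3 GC boxes, and for Cpt2 66.8%, 26 CpG and 3 GC boxes. The windows of Crat (63.6%, 19 CpG, 1 GC box) and Slc25a20 (56.4%, 9 CpG, 2 GC boxes) were also above the median of 51.2% and 5 CpG over all 33469 windows. The window of Cpt1a (45.6%, 10 CpG) and a second window of Bbox1 (42.4%, 8 CpG) held no GC box. A GC box stood in 30.5% of all windows. The nuclear receptor core AGGTCA or TGACCT was in none of the 8 windows of the 7 members that had one, against 14.1% of all windows, nor was its direct repeat with a spacer of 1 base (DR1), against 0.0508%. A match is a description of these letters only, and high- and low-GC windows were found both before genes that rose and before genes that fell.

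The values are array signals on a linear scale, scaled to a common level by the authors, and a difference is the log2(signal + 16) of the first-named group minus that of the second, ± the SE of the model. That scale understates the change of dim probesets. Signals of different probesets are not set against each other. A difference was called at a Benjamini-Hochberg adjusted p under 0.05 in limma over the 21729 probesets that passed a filter on low mean signal. All 12 probesets of the 8 genes passed it, with mean signals between the 46.1st and the 97.2nd percentile. The 8 hepatocyte markers, among them Alb, Ttr and Apoa1, all passed, with group medians of their summed signal from 409440 (10 mM, 24 h) to 507554 (0.5 mM, 24 h). At 10 mM and 24 h 6 of the 8 fell, with a median of -0.24, and at 48 h 3 fell and 1 rose (median -0.10). Of all probesets tested, 20.3% fell at 24 h, and 18% fell and 24.3% rose at 48 h. Of the biliary markers Epcam read 8162 on average, while Krt19 and Krt7 were below the filter, and Epcam was lower at 10 mM by -0.23 at 24 h and -1.03 at 48 h. The summed signal of 6 stellate cell markers was 2428 to 2835 at 10 mM against 3424 to 3867 in water at 24 h, and 2498 to 3046 against 3527 to 4275 at 48 h. Of the 5 stellate markers tested, 2 were called lower and 3 were not called at each time. The medians of these 5 were -0.26 at 24 h and -0.01 at 48 h, against 0.10 and 0.04 over all probesets tested. Their part in the results was not tested. In these bulk samples fewer cells of a type and less RNA per cell cannot be told apart.

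RNA quality differed between arrays and touched several of the members. The actin control probesets compare the 3′ with the 5′ end of that transcript, and their log2 ratio, which rises as RNA is broken or copied in part, was above 2 on 3 arrays: culture 3 of water 24 h (2.76), and cultures 3 (2.77) and 4 (2.23) of 0.5 mM 48 h. The medians of the 4 groups without such an array lay between 1.21 and 1.44. Within groups, over 30 arrays and as a description, the ratio went with the signal of Crot 1387183_at at r = -0.94, Bbox1 1369546_at at -0.87, Crot 1368426_at at -0.74 and Slc25a20 at -0.72. It went the other way with Cpt2 at 0.73 and Cpt1a 1386946_at at 0.71. For the other Bbox1 probeset, 1391293_at, it was -0.18. Over the 27 arrays without these 3 the values were -0.56 for Crot 1387183_at, -0.64 for Bbox1 1369546_at, 0.11 for Crot 1368426_at, -0.43 for Slc25a20, 0.38 for Cpt2 and 0.49 for Cpt1a 1386946_at. Member differences from water that rest on these arrays are therefore given with and without them, and for the gene lists the counts without them are given where they changed most.

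**Figure D1:**
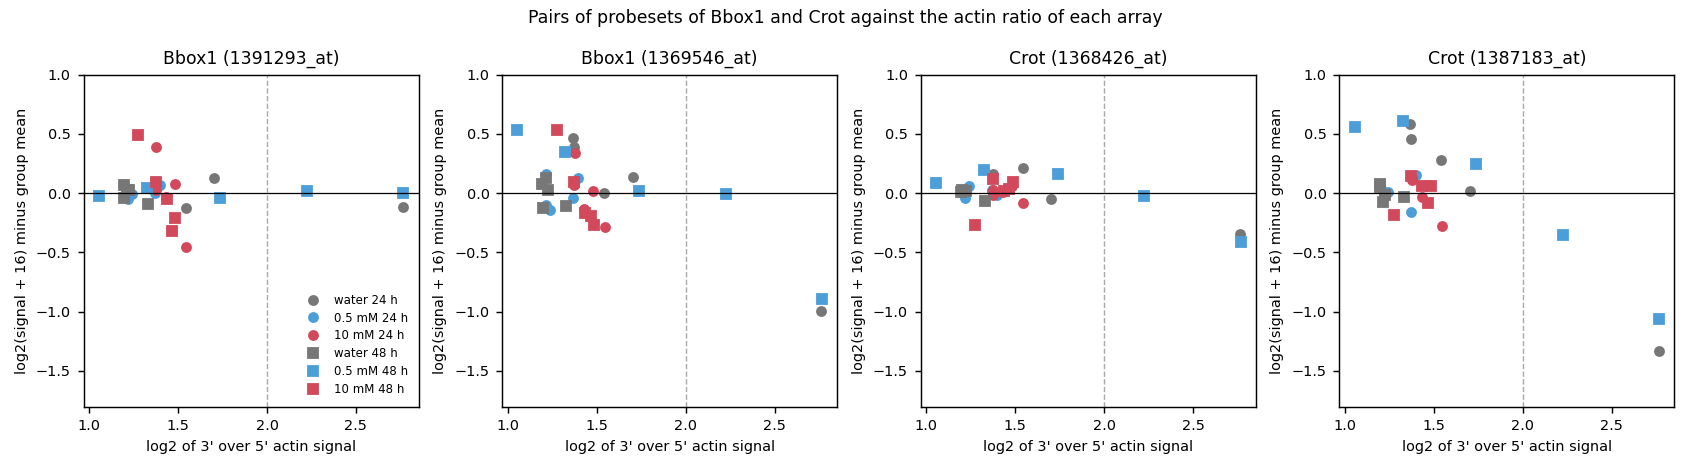
Deviation of log2(signal + 16) from the group mean (vertical axis) for pairs of Bbox1 and Crot probesets, against the log2 of the 3′ over the 5′ actin signal (horizontal axis), 1 point per array, with a dashed line at 2. The arrays at 2.76 and 2.77 lie low for Bbox1 1369546_at and for both Crot probesets and near 0 for Bbox1 1391293_at.

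Counted over the members, 10 mM against water at 24 h called all 12 probesets, 9 higher and 3 lower, where 48.8% of all probesets tested were called (28.5% higher and 20.3% lower). All 12 had groups that did not overlap, against 38.7% of all. At 48 h, 11 were called, 9 higher and 2 lower (Bbox1), against 42.2% (24.3% higher and 18% lower), and 11 did not overlap, against 35.3%. The median difference of the 12 was 0.73 at 24 h and 0.77 at 48 h, against 0.10 and 0.04 over all probesets tested. At 0.5 mM 6 were called at 24 h, 5 higher and 1 lower, against 23.8% (11.5% higher and 12.3% lower), and 4 did not overlap, against 15.8%. At 48 h 6 were called, 4 higher and 2 lower, against 22.1% (10.2% higher and 11.9% lower), and 3 did not overlap, against 12.5%. The medians at 0.5 mM were 0.28 and 0.10, against 0.07 and -0.00. The doses share their water cultures, so their values are given side by side and no likeness between them is drawn.

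**Figure D2:**
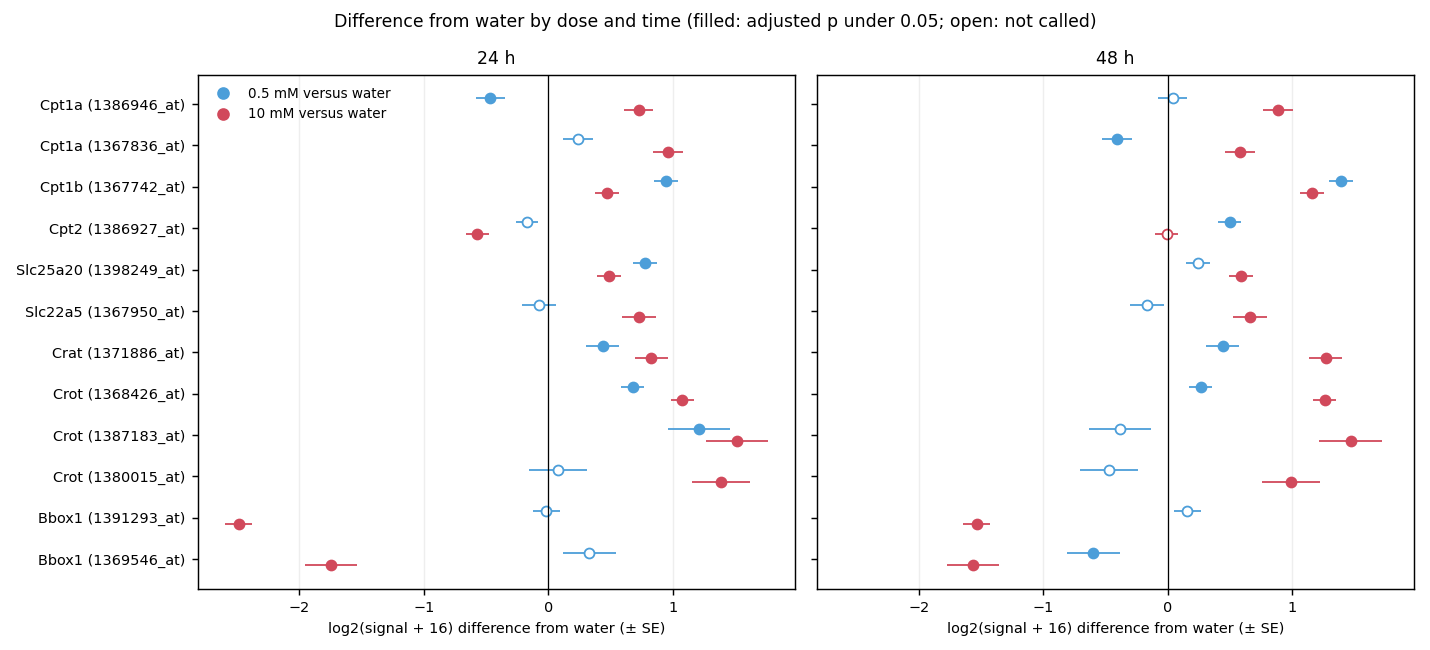
Log2 differences from water (horizontal axis, ± SE of the fit) of the 12 member probesets (rows) at 24 h and 48 h, with filled points called at an adjusted p under 0.05 and open points not called. Both Bbox1 probesets lie far left at 10 mM (-2.49 and -1.75 at 24 h), and Cpt1b lies further right at 0.5 mM than at 10 mM.

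Bbox1 showed the largest change of the 8 genes and the only fall called at both times of 10 mM. On probeset 1391293_at the water cultures at 24 h read 18914, 19122, 21199, 21929 and 22539, a mean of 20741 ± 1644 (SD, n = 5). The 10 mM cultures at 24 h read 2675, 3582, 3729, 3872 and 4827, or 3737 ± 768. The groups lay far apart, with every treated culture below every control. The difference was -2.49 ± 0.11 (adjusted p = 5.56e-18), a 5.61-fold fall, and -2.52 without the 3 arrays. The hepatocyte markers had a median of -0.24 in the same comparison. By 48 h the water cultures read 19538 to 21865, and the 10 mM cultures read 5758, 6178, 6914, 7657 and 10055. Again no culture overlapped, and the fall was 2.90-fold (-1.53 ± 0.11, adjusted p = 5.62e-13). The fall was smaller at 48 h than at 24 h by 0.95 ± 0.16 (adjusted p = 8.07e-05), a test of the difference itself. On the other Bbox1 probeset, 1369546_at, that change was 0.18 ± 0.30 and was not called (adjusted p = 0.776). With the actin ratio as a covariate in limma it was 0.60 and was called (adjusted p = 0.00909). In 31 other settings it stayed not called.

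At 0.5 mM Bbox1 was not called on the brighter probeset. The 24 h cultures read 19752 to 21442, within the range of water, with a difference of -0.02 (95% interval -0.24 to 0.21), or -0.05 without the 3 arrays. At 48 h they read 22513, 22877, 23187, 23510 and 23965, all above the highest water culture of 21865, yet the difference of 0.16 ± 0.11 was not called (adjusted p = 0.341), nor was it without the 3 arrays (0.15). When arrays were centred on ribosomal protein genes, this difference was called higher (0.37, adjusted p = 0.021). Probeset 1369546_at gave the same direction at 10 mM, with falls of -1.75 ± 0.21 at 24 h (adjusted p = 2.32e-08) and -1.56 ± 0.21 at 48 h (adjusted p = 2.63e-07), and no overlap of groups. The fall at 24 h without the 3 arrays was -1.99. At 0.5 mM and 48 h it was called lower, at -0.60 ± 0.21 (adjusted p = 0.0395). There the treated cultures read 7889, 14620, 14894, 18670 and 21182 against 20388 to 24219 in water. The lowest of them, 7889, and the next, 14620, were the arrays with the high actin ratios. Without the 3 arrays the difference was -0.30 (adjusted p = 0.175), and with the ratio as a covariate -0.08 (adjusted p = 0.727).

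Of the other 4 synthesis genes, Tmlhe, Aldh9a1, Shmt1 and Shmt2, none rose and 3 fell at 10 mM at either time. Among all probesets tested, 20.3% fell at 24 h and 18% at 48 h. Aldh9a1, the dehydrogenase that makes gamma-butyrobetaine, fell by 0.80 ± 0.07 at 24 h (adjusted p = 5.16e-11) and by 0.52 ± 0.07 at 48 h (adjusted p = 4.73e-07). Tmlhe, the hydroxylase of the first step, had a difference of -0.03 ± 0.13 at 24 h (not called) and fell by 0.43 ± 0.13 at 48 h (adjusted p = 0.00985). The serine hydroxymethyltransferases, of which a role in the aldolase step has been proposed, fell by 0.90 (Shmt2) and 0.64 (Shmt1) at 24 h, and at 48 h Shmt2 fell by 0.66 while Shmt1 was at -0.06 and not called. The median of the 4 was -0.72 at 24 h and -0.47 at 48 h, against 0.10 and 0.04 over all probesets tested, and 2 were called lower at 48 h when arrays were centred on ribosomal protein genes. At 0.5 mM none of the 4 was called lower, save 1 at 24 h without the 3 arrays. Tmlhe rose by 0.51 at 24 h (adjusted p = 0.00585), Shmt2 by 0.62 at 24 h and 0.78 at 48 h, and Aldh9a1 by 0.26 at 48 h (adjusted p = 0.00802).

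Slc22a5, the uptake transporter, rose at 10 mM and stayed near water at 0.5 mM. The water cultures at 24 h spread from 1345 to 2253, with 1397, 1866 and 2022 between them. All 5 of the 10 mM cultures were higher, at 2751, 2845, 2851, 2976 and 3055. That difference was 0.73 ± 0.14 (adjusted p = 3.6e-05), a 1.66-fold rise, and 0.75 without the 3 arrays. At 48 h the 10 mM cultures read 2640 to 2965 against 1544, 1548, 1608, 1797 and 2301 in water. Here too the groups did not overlap, and the rise was 0.66 ± 0.14 (adjusted p = 0.000166). The 0.5 mM differences were -0.08 (95% interval -0.35 to 0.20) at 24 h and -0.16 (-0.44 to 0.11) at 48 h, so changes of that width remain possible. They were -0.05 and -0.32 without the 3 arrays, neither called. The related organic cation transporter gene Slc22a4 fell slightly at 10 mM and 24 h (-0.26, adjusted p = 0.0128) and rose at 0.5 mM and 48 h (0.44, adjusted p = 0.000233). Of the 4 other carrier genes tested, Slc22a4 alone fell at 10 mM and 24 h, a call lost after centring on ribosomal protein genes, and 2 rose at 48 h: Slc25a29, a basic amino acid carrier with some carnitine transport reported, by 0.54 (adjusted p = 0.00306), and the brain isoform gene Cpt1c by 1.44 ± 0.51 (adjusted p = 0.0214). The Cpt1c probeset was dim, at a mean signal of 178, close to the filter. Over all probesets tested, 20.3% fell at 10 mM and 24 h and 24.3% rose at 48 h. Slc16a9, a carnitine efflux transporter gene, was not called in any dose comparison with water.

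**Figure D3:**
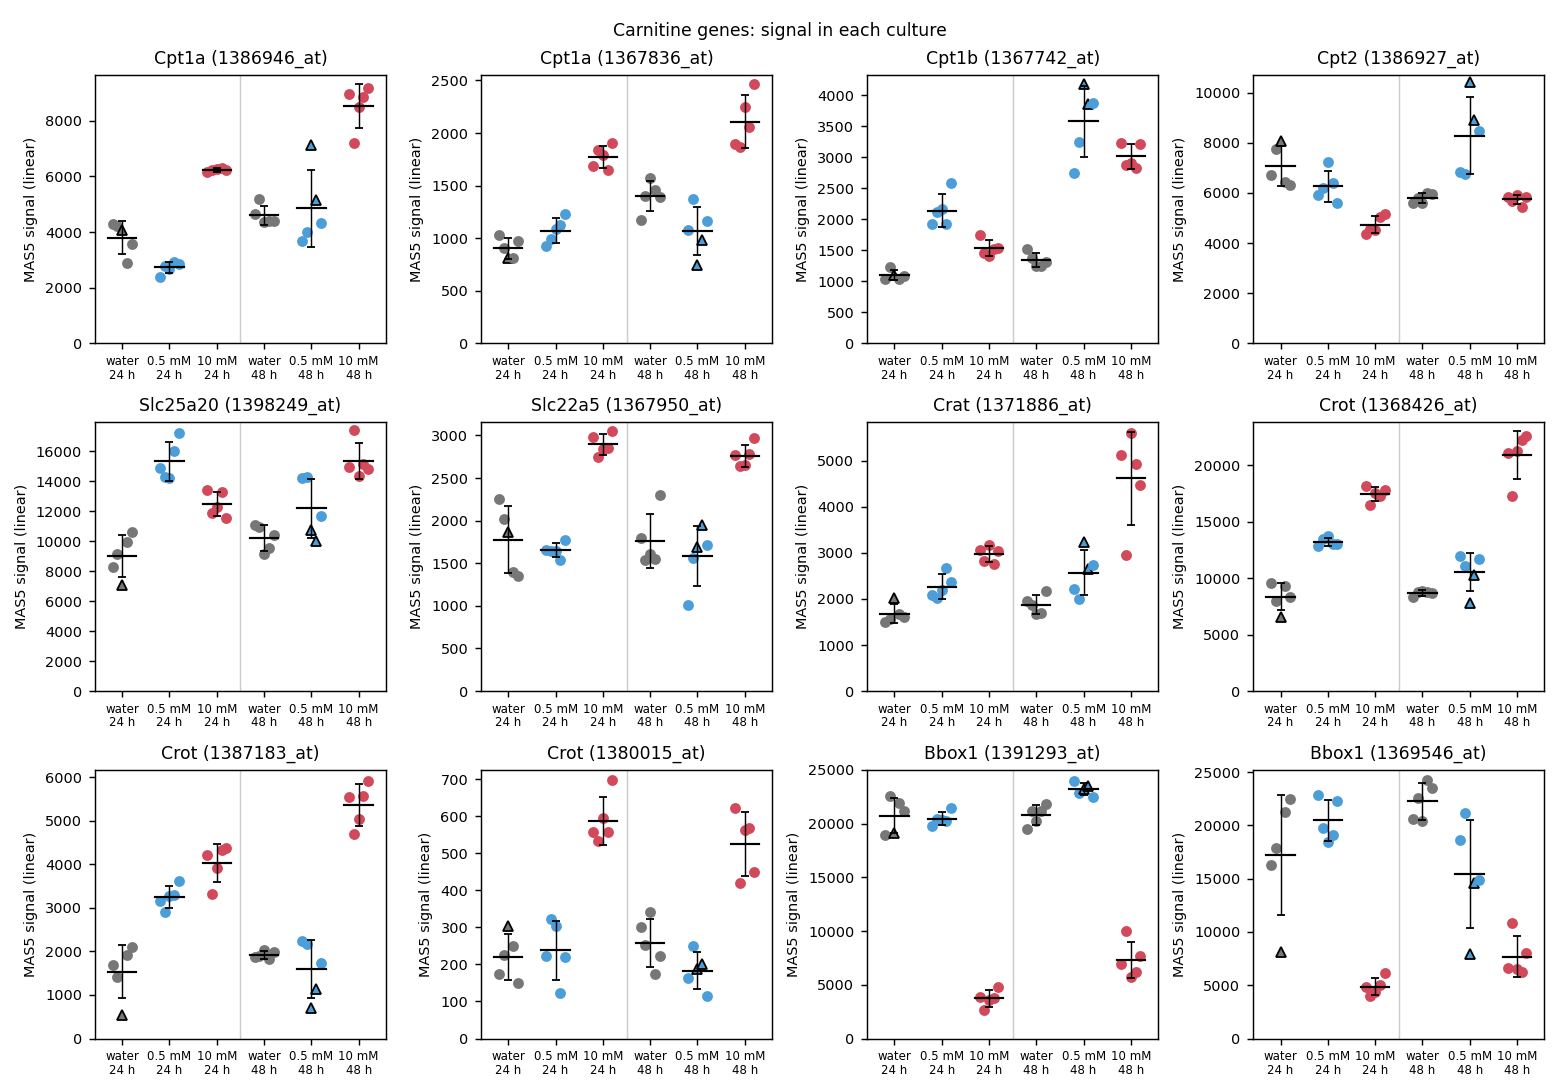
Array signal (vertical axis, linear scale) of each probeset in the 6 groups (horizontal axis), 1 point per culture with the mean and SD, and a triangle for each of the 3 arrays with a high actin ratio. Bbox1 1391293_at drops from 18914 to 22539 in water to 2675 to 4827 at 10 mM and 24 h, whereas Crot 1368426_at climbs from 6511 to 9572 to 16454 to 18149.

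Cpt1a, the liver isoform of the outer-membrane step, rose at 10 mM on both of its probesets. On 1386946_at the water cultures at 24 h read 2888, 3566, 4074, 4216 and 4270. The 10 mM cultures were closely grouped at 6154, 6208, 6210, 6245 and 6303. No culture overlapped. The log2 differences are 0.72 ± 0.12 at 24 h (adjusted p = 5.32e-06) and 0.89 ± 0.12 at 48 h (adjusted p = 2.43e-07), the latter from 7203, 8475, 8859, 8935 and 9158 against 4369 to 5182. On 1367836_at the rise was 0.96 ± 0.12 at 24 h (adjusted p = 4.18e-08) and 0.58 ± 0.12 at 48 h (adjusted p = 0.000168), again without overlap. The 24 h rises without the 3 arrays were 0.75 and 0.92.

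At 0.5 mM the probesets of Cpt1a disagreed. On 1386946_at the 24 h cultures read 2394, 2688, 2778, 2841 and 2932, 4 of them below the lowest water culture of 2888, and the difference was called at -0.47 ± 0.12 (adjusted p = 0.0045). On 1367836_at the same cultures read 922 to 1234 against 809 to 1034, with a difference of 0.24 ± 0.12 that was not called (adjusted p = 0.147). Without the 3 arrays these were -0.44 (called) and 0.20 (not called). At 48 h the order turned: 1386946_at was at 0.04 ± 0.12 (-0.20 without the 3 arrays, not called) and 1367836_at was called lower, at -0.41 ± 0.12 (adjusted p = 0.0131). The latter call was lost without the 3 arrays of high actin ratio (-0.21, adjusted p = 0.222) and without culture 3 of 0.5 mM 48 h alone (-0.29, adjusted p = 0.0689). Without the 3 arrays the probesets were thus close at 48 h (-0.20 and -0.21), and at 24 h still on opposite sides. Within groups the actin ratio went with 1386946_at at r = 0.71 and with 1367836_at at -0.59 over 30 arrays. Without the 3 arrays these were 0.49 and -0.10. The pair correlated within groups at -0.29 over 30 arrays, so at this dose no direction is given for Cpt1a as a gene.

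Cpt1b, the muscle isoform, rose at both doses and both times, and the lower dose gave the higher level. At 24 h the water cultures read 1042, 1043, 1090, 1103 and 1238. The 0.5 mM cultures read 1926, 1929, 2114, 2163 and 2587, and the 10 mM cultures 1411, 1463, 1530, 1535 and 1747. The 3 groups did not overlap, with 10 mM between the others. The rises over water were 0.94 ± 0.10 at 0.5 mM (adjusted p = 1.86e-08) and 0.47 ± 0.10 at 10 mM (adjusted p = 0.000146). Both of these grew by 48 h, to 1.39 ± 0.10 at 0.5 mM (2.62-fold, adjusted p = 6.04e-12) and 1.16 ± 0.10 at 10 mM (2.23-fold, adjusted p = 2.2e-11). Without the 3 arrays the rises were 0.94 and 0.47 at 24 h, and 1.27 at 0.5 mM and 48 h, all called. The growth of the effect was 0.68 ± 0.14 at 10 mM (adjusted p = 0.00104) and 0.45 ± 0.14 at 0.5 mM (adjusted p = 0.0227). The second of these growth values was not called without the 3 arrays (0.33, adjusted p = 0.174). At 48 h the 0.5 mM cultures spread over 2751, 3252, 3861, 3873 and 4179, across the 2827 to 3239 of 10 mM, and the gap between the doses was not called there (-0.23 ± 0.10, adjusted p = 0.0501). This gap was called in 8 other settings and not in 14. Quantile normalization (-0.31, adjusted p = 0.00767) and array weights (-0.28, adjusted p = 0.0155) were among the 8. Over the 12 alternatives it ran from -0.31 to -0.11.

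Muscle markers are set beside Cpt1b, since it is the muscle isoform. Of 8 listed, 7 had a probeset and 3 passed the filter (Ckm, Acta1 and Tnni2), while Tnnt2, Myh6, Myh7 and Mb stayed below it and none was listed at 0. Their summed signal was 2166 to 2512 in water and 1139 to 1650 at 10 mM at 24 h, and 3371 to 4407 and 1282 to 2202 at 48 h. It was 2575 to 3197 at 0.5 mM and 24 h, above water, and 3874 to 4594 at 48 h, overlapping it. Sums of stellate, adipocyte and biliary markers were above water too at 0.5 mM and 24 h. These read 3892 to 4525 against 3424 to 3867 (stellate) and 859 to 1071 against 608 to 748 (adipocyte). For biliary markers they were 8809 to 9271 against 6944 to 8574. Hepatocyte, macrophage and endothelial sums overlapped water there. None of the 3 muscle markers tested was called at 0.5 mM at either time. Acta1 was lower at 10 mM, by a log2 difference of -1.35 at 24 h and -2.06 at 48 h. Ckm and Tnni2 were not called at either dose or time, at -0.06 and -0.28 at 10 mM and 24 h and 0.09 and 0.13 at 48 h. The share of any muscle-type cell in the 0.5 mM result was not tested. In the RefSeq gene table Cpt1b is next to Chkb, and the sources used here do not say where in the transcript its probes lie.

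CPT1 is held back by malonyl-CoA, and of 8 genes tested that make, remove or regulate it, 1 rose and 4 fell at 10 mM and 24 h, and 2 rose and 4 fell at 48 h. Among all probesets tested, 28.5% rose and 20.3% fell at 24 h, and 24.3% rose and 18% fell at 48 h. Acaca, the acetyl-CoA carboxylase that makes malonyl-CoA, fell by 2.04 ± 0.09 at 24 h (adjusted p = 2.34e-18) and by 1.44 ± 0.09 at 48 h (adjusted p = 1.27e-14). Mlycd, the decarboxylase that removes it, was at 0.15 at 24 h (not called, adjusted p = 0.0506) and rose by 0.33 at 48 h (adjusted p = 9.04e-05). The other falls were in subunits of AMP-activated kinase, which phosphorylates the carboxylases: Prkaa2 by 1.00 and 0.82, Prkag2 by 1.00 and 0.66, and Prkaa1 by 0.49 and 0.16, at 24 h and 48 h. Its subunit gene Prkab1 rose by 0.41 and 0.62. At 0.5 mM Acaca fell by 0.91 ± 0.09 at 24 h (adjusted p = 3.85e-09) and was at -0.08 at 48 h (not called). The median of the 8 at 10 mM and 48 h was -0.21, but 0.01 after centring on ribosomal protein genes. Acacb, the carboxylase linked to mitochondria, did not pass the filter.

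Slc25a20, the inner-membrane carrier, rose at 10 mM at both times and at 0.5 mM at 24 h. The water cultures at 24 h read 7099, 8241, 9103, 9953 and 10572. The 0.5 mM cultures read 14228, 14266, 14842, 15990 and 17233, all above the 11538 to 13371 of 10 mM. Both doses stood clear of water, by 0.78 ± 0.10 at 0.5 mM (1.71-fold, adjusted p = 4.3e-07) and 0.48 ± 0.10 at 10 mM (1.40-fold, adjusted p = 8.52e-05), and by 0.70 and 0.40 without the 3 arrays. The 10 mM cultures at 48 h read 14314, 14803, 14953, 15132 and 17415 against 9159 to 11066 in water, a rise of 0.59 ± 0.10 (adjusted p = 7.13e-06). The 0.5 mM cultures had spread out by then, at 10026, 10722, 11685, 14173 and 14285. Their difference of 0.24 ± 0.10 was not called (adjusted p = 0.0685), but it was called in 5 of the 12 other settings, among them without the 3 arrays (0.39, adjusted p = 0.0018), and without either of its cultures 3 and 4. The order of the doses at 24 h, -0.29 ± 0.10 for 10 mM minus 0.5 mM (adjusted p = 0.0109), was not called after quantile normalization (-0.16, adjusted p = 0.14) or centring on ribosomal protein genes (-0.14, adjusted p = 0.194).

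Cpt2, which completes the transfer in the matrix, fell at 10 mM at 24 h and was at the water level at 48 h. At 24 h the water cultures read 6321, 6448, 6726, 7747 and 8088 and the 10 mM cultures 4360, 4541, 4560, 5039 and 5167. Those groups did not overlap, and the fall was -0.57 ± 0.09 (1.49-fold, adjusted p = 3.11e-06), or -0.52 without the 3 arrays. The hepatocyte markers were lower alongside, with a median of -0.24. The 48 h cultures of 10 mM read 5453 to 5920 and those of water 5585 to 5994. Their difference was -0.01, with a 95% interval of -0.20 to 0.18, and the change of effect from 24 h to 48 h was 0.56 ± 0.13 (adjusted p = 0.00344). At 0.5 mM the difference was -0.17 ± 0.09 at 24 h (not called, -0.12 without the 3 arrays). By 48 h it was a rise of 0.50 ± 0.09 (adjusted p = 0.000135). The cultures of that group read 6768, 6846, 8484, 8889 and 10417, of which 10417 and 8889 were the arrays with high actin ratios. Without the 3 arrays the rise was 0.34 (adjusted p = 0.00358).

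The enzymes of the matrix spiral that follow Cpt2 divided at 10 mM and moved one way at 0.5 mM. At 10 mM and 24 h, 4 of 12 rose and 7 fell, among them Acadvl (-1.41 ± 0.07, adjusted p = 1.04e-16) and Acadl (-0.78 ± 0.06, adjusted p = 3.01e-12), the very-long- and long-chain dehydrogenases, and Etfdh (-0.75), which passes their electrons on. Acadm, the medium-chain dehydrogenase, rose by 0.67 ± 0.08 (adjusted p = 6.57e-09). At 48 h, 5 rose and 6 fell, with Hadha of the trifunctional protein at 0.77 and the hydratase Echs1 at -0.68. At 0.5 mM all 12 rose at 24 h and 11 at 48 h, with Acadm at 0.86 and 0.85 and Acadvl at 0.24 and 0.58. Scaling moved these counts: at 0.5 mM and 24 h, 11 rose after quantile normalization and 10 after centring on ribosomal protein genes, and at 10 mM and 48 h the latter gave 6 higher and 3 lower, with a median of 0.12. Their medians were -0.35 and -0.10 at 10 mM and 0.38 and 0.48 at 0.5 mM, at 24 h and 48 h. Of all probesets tested, 28.5% rose and 20.3% fell at 10 mM and 24 h, and 24.3% and 18% at 48 h. With 0.5 mM, 11.5% rose at 24 h and 10.2% at 48 h.

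**Figure D4:**
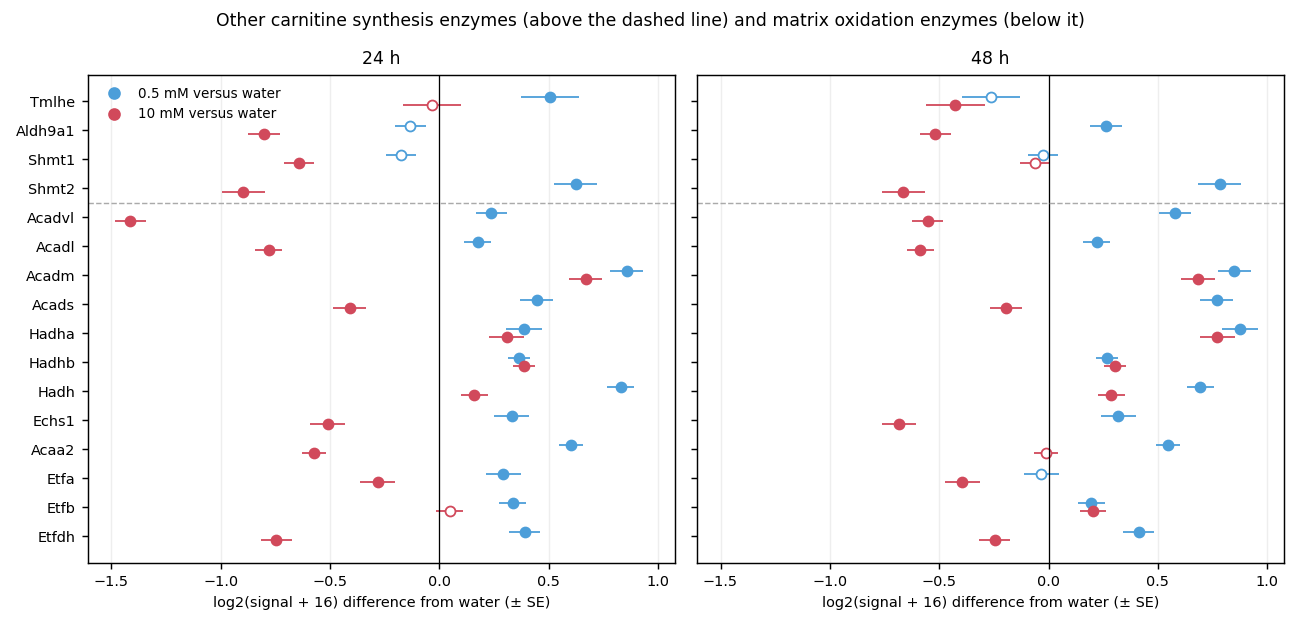
Log2 differences from water (horizontal axis, ± SE of the fit) of the other carnitine synthesis genes and of 12 matrix oxidation genes (rows) at 24 h and 48 h, with filled points called and open points not called. Points of 0.5 mM lie to the right of 0 for all 12 matrix genes at 24 h, while Acadvl lies at -1.41 for 10 mM.

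Crot, the medium-chain acyltransferase of peroxisomes, rose at 10 mM on each of its 3 probesets at both times. On the brightest, 1368426_at, the water cultures at 24 h read 6511, 7990, 8364, 9262 and 9572. The 0.5 mM cultures read 12821 to 13747 and the 10 mM cultures 16454, 17259, 17536, 17792 and 18149. The 3 groups were in order of dose without overlap, and the rises were 0.68 ± 0.09 at 0.5 mM (adjusted p = 1.96e-06) and 1.07 ± 0.09 at 10 mM (adjusted p = 1.51e-11), or 0.59 and 0.99 without the 3 arrays. At 48 h the 10 mM cultures read 17304, 21090, 21278, 22241 and 22558 against 8284 to 8830, a 2.39-fold rise (1.26 ± 0.09, adjusted p = 7.52e-13). The 0.5 mM cultures at 48 h read 7832, 10238, 11060, 11695 and 11958, and the lowest of them, of a high actin ratio, was below all 5 water cultures. That comparison was called (0.27 ± 0.09, adjusted p = 0.0343), and it lost the call in 9 of the 10 removals of a single culture and kept it without the 3 arrays (0.41, adjusted p = 5.41e-05).

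The other Crot probesets rose at 10 mM by 1.51 ± 0.25 and 1.47 ± 0.25 (1387183_at, at 24 h and 48 h) and by 1.39 ± 0.23 and 0.99 ± 0.23 (1380015_at), with no overlap. They parted at 0.5 mM and 24 h, where 1387183_at rose by 1.21 ± 0.25 (adjusted p = 0.000612) and the dim 1380015_at was at 0.08 ± 0.23. That rise was 0.87 without the 3 arrays (adjusted p = 1.66e-07) and 0.69 with the actin ratio as a covariate (adjusted p = 4.24e-06). Neither was called at 0.5 mM and 48 h (-0.38 and -0.47). Without the 3 arrays these were 0.09 (adjusted p = 0.667) and -0.55, neither called. On 1387183_at the rise at 10 mM and 24 h was 1.18 without the 3 arrays, since the lowest water culture, at 545 against 1408 to 2092 in the others, is 1 of them. On 1380015_at the values at 24 h were then 1.51 at 10 mM and 0.20 at 0.5 mM, the latter not called.

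Crat, the short-chain acyltransferase, rose at both doses. At 24 h the water cultures read 1504, 1567, 1600, 1673 and 2028 and the 10 mM cultures 2750, 2830, 3044, 3059 and 3172. Those did not overlap, and the rise was 0.83 ± 0.13 (1.77-fold, adjusted p = 2.99e-06), or 0.90 without the 3 arrays. At 48 h the 10 mM cultures read 2949, 4477, 4941, 5120 and 5610 against 1672 to 2177, a rise of 1.27 ± 0.13 (2.41-fold, adjusted p = 1.57e-09). The culture at 2949 stood below the other 4 yet above all of water. At 0.5 mM the rise was 0.44 ± 0.13 at each time (adjusted p = 0.0152 and 0.0138), with 2013 to 2678 at 24 h overlapping the highest water culture. The 24 h rise without the 3 arrays was 0.51. The call at 24 h was lost after centring on ribosomal protein genes (0.37, adjusted p = 0.109) and without culture 4 of 0.5 mM (0.37, adjusted p = 0.0505), and that at 48 h without the 3 arrays (0.30, adjusted p = 0.141) and without culture 3 (0.35, adjusted p = 0.0597). The 10 mM cultures stood above those of 0.5 mM by 0.39 ± 0.13 at 24 h (adjusted p = 0.0128), which was not called after quantile normalization (0.25, adjusted p = 0.0988). At 48 h the log2 mean of 10 mM was higher by 0.83 ± 0.13 (adjusted p = 3.38e-06).

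Of the peroxisomal genes that work with Crot, 4 passed the filter. At 0.5 mM all 4 rose at both times, or 3 of them at 24 h after centring on ribosomal protein genes. At 10 mM and 24 h, 1 rose and 2 fell (3 without the 3 arrays, 1 with that centring): Ehhadh, the bifunctional enzyme of peroxisomal oxidation, rose by 1.40 ± 0.12 (adjusted p = 1.44e-11), Hsd17b4, the other bifunctional enzyme, fell by 0.86 (adjusted p = 4.66e-14) and Abcd3, a transporter of the peroxisomal membrane, by 0.25 (adjusted p = 0.000439). By 48 h Ehhadh stood higher by 2.44 ± 0.12 at 10 mM and by 2.23 ± 0.12 at 0.5 mM. Among all probesets tested, 11.5% rose at 0.5 mM and 24 h and 10.2% at 48 h. With 10 mM, 28.5% rose and 20.3% fell at 24 h.

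Between the doses, 11 probesets were called at 24 h, 6 higher and 5 lower at 10 mM, against 51.5% of all (28.5% higher and 22.9% lower), and 11 did not overlap, against 43%. The 5 lower ones were those of Bbox1 (-2.47 and -2.08), Cpt1b (-0.47 ± 0.10, adjusted p = 0.000142), Cpt2 (-0.40 ± 0.09, adjusted p = 0.000397) and Slc25a20. After centring on ribosomal protein genes Cpt2 was not called here (-0.25, adjusted p = 0.0856). The higher ones were led by Crot 1380015_at (1.31 ± 0.23) and Cpt1a 1386946_at (1.19 ± 0.12), with Slc22a5 at 0.80 ± 0.14 (adjusted p = 7.76e-06). At 48 h 11 were called, 8 higher and 3 lower, against 46.7% (26.9% higher and 19.7% lower), and 9 did not overlap, against 33.6%. There Slc25a20 had turned, with 10 mM higher by 0.34 ± 0.10 (adjusted p = 0.00368), a call that was lost without the 3 arrays (0.20, adjusted p = 0.0653). Cpt2 remained lower at 10 mM, at -0.51 ± 0.09 (adjusted p = 2.24e-05, or -0.35 without the 3 arrays), and Bbox1 at -1.69 and -0.97 (-1.69 and -1.27 without them).

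The water cultures give the change with time alone. There, 48 h against 24 h called 1 of 12 probesets, Cpt1a 1367836_at, higher by 0.62 ± 0.12 (adjusted p = 0.00101), against 7.83% of all (3.94% higher and 3.88% lower). On 4 the groups did not overlap, both of Cpt1a, Cpt1b (0.28) and Cpt2 (-0.28), against 7.92%, and 5 of the 12 had an unadjusted p under 0.05. The effect of 10 mM differed between the times for 3 probesets, all higher at 48 h, against 10.5% (5.8% higher and 4.72% lower): Bbox1 1391293_at, Cpt1b and Cpt2, as given above. The effect of 0.5 mM differed for 8, 3 higher and 5 lower, against 19.5% (9.86% higher and 9.65% lower), with the largest for Crot 1387183_at (-1.59 ± 0.35, adjusted p = 0.00268). Without the 3 arrays 2 of these calls were made, Cpt2 (0.46, adjusted p = 0.0112) and Crot 1387183_at (-0.79, adjusted p = 0.00184), and 0 with the actin ratio as a covariate in limma, where 2 had an unadjusted p under 0.05.

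Fatty acid supply upstream of the shuttle moved unevenly. Of 9 genes tested, 2 rose and 5 fell at 10 mM and 24 h, and 3 rose and 1 fell at 48 h. After quantile normalization these were 2 and 3 at 24 h, with a median of 0.00 in place of -0.19, and 5 and 1 at 48 h. Acsl1, the long-chain acyl-CoA synthetase of liver, rose by 0.87 ± 0.08 and 1.22 ± 0.08 at 10 mM and by 0.92 ± 0.08 and 0.96 ± 0.08 at 0.5 mM, at 24 h and 48 h. Acsl3 rose by 1.35 and 0.89 at 10 mM and was near water at 0.5 mM. Slc27a5, a bile acid and very-long-chain acyl-CoA ligase, fell by 1.59 and 2.18 at 10 mM. Fabp1, the liver fatty acid binding protein, fell by 1.34 at 10 mM and 24 h and rose by 0.61 at 48 h, and rose by 1.14 and 1.08 at 0.5 mM. Of 8 genes tested for regulators of the pathway, 1 rose and 2 fell at 10 mM and 24 h and 1 rose at 48 h, where quantile normalization added 2 that fell. For this list and the supply genes, the shares over all probesets tested were 28.5% higher and 20.3% lower at 24 h. At 48 h they were 24.3% and 18%. The regulators were called no more often than probesets at large at either time. Hnf4a, a liver nuclear receptor, fell by 0.79 at 24 h and rose by 0.42 at 48 h, Esrra rose by 0.71 and Ppargc1b fell by 0.35 at 24 h. Ppara, the receptor that fatty acids activate, was at 0.67 ± 0.57 and -0.55 ± 0.57 at 10 mM, neither called, and its rise of 1.57 ± 0.57 at 0.5 mM and 24 h had an adjusted p of 0.0436. The Ppara probeset was dim, at a mean signal of 199, close to the filter. The coactivator gene Ppargc1a was not called at 10 mM (0.10 and -0.17) and fell by 0.49 at 0.5 mM and 48 h (adjusted p = 0.0019).

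The order of the 6 group means separated the members into distinct patterns. For Bbox1 1391293_at the 2 groups of 10 mM were lowest, 24 h below 48 h without overlap, and the other 4 groups had means from 20449 to 23210. For Slc22a5 the groups of 10 mM were highest and did not overlap the other 4, which overlapped each other in turn. For Crot 1368426_at, 0.5 mM at 24 h stood on its own between 10 mM and the rest. For Cpt1b, 0.5 mM at 48 h was highest and water at 24 h lowest. For Cpt2, 0.5 mM at 48 h was highest and 10 mM at 24 h lowest, and the groups between overlapped.

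The genes whose log2 values followed each member most closely over the 30 arrays were different for each member. The values share their arrays and the same 6 groups, so each r is a description. Cpt1b went with Ehhadh at r = 0.95 and with Cyp4a1, a fatty acid hydroxylase, at 0.91, then Plbd1 at 0.91. Bbox1 went with Cpped1, with Baat, which joins bile acids to amino acids, and with the glutathione transferase Gsta3, all at 0.99. For Crot these were Hlf (0.95), Pja2 (0.94) and Tspan3 (0.94). For Cpt1a they were Tmem50b (0.94), Otud5 (0.92) and Nceh1 (0.92), and for Crat Sra1 (0.93), Pgrmc2 (0.92) and Gde1 (0.90). Cpt2 went with Got2, the mitochondrial aspartate aminotransferase, Sema4g and Sidt2, all at 0.91, Slc22a5 with Pcnx4, Mitf and Habp4, all at 0.91, and Slc25a20 with Cd59b (0.90), Atraid (0.87) and Nucb2 (0.87). Within groups, where dose and time no longer add to it, r fell to 0.55 for Cpt1b with Ehhadh and -0.05 with Cyp4a1, and was 0.75 for Bbox1 with Cpped1.

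Probesets of a gene agreed better for Bbox1 (r = 0.90 over all arrays, 0.52 within groups) and for the Crot pair 1368426_at and 1387183_at (0.91 and 0.84) than for Cpt1a (0.72 and -0.29). The third Crot probeset, 1380015_at, went with the first at 0.70 over all arrays and -0.14 within groups. Its signal was 115 to 697, the dimmest of the 12. Within groups both probesets of the Crot pair went with the actin ratio, at r = -0.74 and -0.94. Without the 3 arrays of a high ratio these were 0.11 and -0.56. For Cpt1a the ratio went with the probesets in opposite directions (0.71 and -0.59), and for Bbox1 at -0.18 and -0.87. The part of RNA quality in the agreement of probesets was not tested.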

How the data were processed

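Total RNA from each of 30 cultures was read on an array of its own after biotin labelling, per the labels' protocols. The deposited values are signal intensity per probeset, made by the authors with MAS5, per the submitters' processing notes, whose version and settings the sources used here do not state. Trimmed means of 1500.5 to 1500.7 show a common scaling, which would hide a shift of most genes one way. It was kept. Precision is set by the number of arrays.

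Of 31099 probesets, 57 controls were left out. The platform table gave 20826 others 1 symbol, 436 several and 9780 none, and a gene in a list was represented by its brightest probeset. Probesets at or above the 30th percentile of mean signal, 21729, entered limma 3.58.1 under R 4.3.3 as log2(signal + 16), all 6 groups in 1 model with 24 residual degrees of freedom, lmFit and eBayes with a trend, two-sided, Benjamini-Hochberg adjusted over all probesets tested. The script was tested on simulated data. No array pair correlated above 0.967, so none was taken as a repeat.

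Members and lists were chosen with earlier results of these data known. Named genes were all member probesets, up to 4 called genes per list with the largest difference at 10 mM, 8 fixed genes, and the 3 most alike genes of each member by Pearson correlation. Values of listed genes at 0.5 mM are given beside those. Alternatives changed the scaling (quantile, or arrays centred on genes of ribosomal proteins), the pseudocount (1 or 64), the filter (none, or the 50th percentile), the trend and the array weights. Others fitted the compared groups alone, blocked each run of 6 running numbers in the titles, left out each culture or the arrays of actin ratio above 2, or took that ratio as a covariate. The scaling and actin alternatives for the lists, and the GC box, were added after seeing the data. Python 3.11.15 with matplotlib 3.10.9 drew the figures.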

Additional observations from a re-analysis of the deposited data

Results flagged for a closer look

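Of 72 groups of 5 values (12 probesets in 6 groups), 3 held a culture whose gap to its nearest neighbour was large against the range of the group, where chance gives about 1 in 20. For Slc25a20, culture 2 of 10 mM 48 h read 17415 against 14314 to 15132 in the others, a gap of 0.717 of the range. For Crot 1368426_at, culture 1 of water 48 h read 8284 against 8714 to 8830 (0.791), and culture 2 of 10 mM 48 h read 17304 against 21090 to 22558 (0.746). The same culture of 10 mM 48 h was thus high for Slc25a20 and low for Crot. It was also lowest of its group for Crat (2949), Slc22a5 (2640) and Cpt1a (7203 on 1386946_at and 1866 on 1367836_at). The other Crot probesets were lowest in it too (4696 and 419), and Bbox1 1391293_at was highest (10055). For Cpt1b and Cpt2 it lay within the range of the other cultures.

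The effect of 10 mM differed between 48 h and 24 h, by the interaction test in limma, for Bbox1 1391293_at (0.95, adjusted p = 8.07e-05), Cpt1b (0.68, adjusted p = 0.00104) and Cpt2 (0.56, adjusted p = 0.00344).

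The effect of 0.5 mM differed between the times for 8 probesets. It was more positive at 48 h for Cpt2 (0.67, adjusted p = 0.000827), Cpt1a 1386946_at (0.51, adjusted p = 0.0332) and Cpt1b (0.45, adjusted p = 0.0227). It was more negative for Crot 1387183_at (-1.59, adjusted p = 0.00268), Bbox1 1369546_at (-0.93, adjusted p = 0.0282), Cpt1a 1367836_at (-0.65, adjusted p = 0.00852), Slc25a20 (-0.53, adjusted p = 0.00701) and Crot 1368426_at (-0.41, adjusted p = 0.0258). The probesets of Cpt1a are on opposite sides. Both the water 24 h and the 0.5 mM 48 h groups hold arrays of a high actin ratio, and without those 3 arrays only Cpt2 (0.46) and Crot 1387183_at (-0.79) of the 8 were called.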

How the results depend on the processing

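Under the 12 alternatives and the removal of each culture, all 263 member values kept their direction and call for 10 mM against water at 24 h and again at 48 h. At 0.5 mM 261 of 263 did at 24 h and 224 at 48 h, where 31 calls were lost and 8 gained. Of 12 probesets, 6 were called at 0.5 mM and 48 h, and 3 with only the groups compared in the model. For 48 h against 24 h in water the count of 1 became 2 with centring on ribosomal protein genes, a filter at the 50th percentile, array weights, the block of running numbers and without the 3 arrays of high actin ratio, and 3 with the ratio as a covariate. It was 1 to 2 when single cultures were left out, the latter without culture 4 or 5 of water 24 h. For the 10 mM effect between times the count of 3 became 6 with the covariate, under which Crot 1387183_at turned from -0.05 to 0.49 (adjusted p = 0.0157). For the 0.5 mM effect between times the count of 8 became 4 with centring on ribosomal protein genes, 4 with only the groups compared, 2 without the 3 arrays and 0 with the covariate. It was 4 to 8 with single cultures left out, at 4 without culture 3 of 0.5 mM 48 h and 5 without culture 3 of water 24 h. Over all probesets that comparison called 4238, against 2815 with only the groups compared, 1489 without the 3 arrays and 617 with the covariate, and water over time 1701 against 1050 with only the groups compared. The cause was not tested.

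Centring on ribosomal protein genes moved the median over all probesets from 0.04 to 0.26 at 10 mM and 48 h and from -0.00 to 0.21 at 0.5 mM and 48 h. The share of calls that were higher went from 57.5% to 78.7% (10 mM, 48 h), 48.4% to 32.0% (0.5 mM, 24 h), 46.1% to 86.4% (0.5 mM, 48 h), 55.5% to 69.0% (10 mM against 0.5 mM, 24 h), 50.4% to 14.8% (water over time), 55.2% to 84.2% (10 mM effect between times) and 50.5% to 92.2% (0.5 mM effect between times). The labels give no replicate numbers that pair cultures, but each run of 6 running numbers in the titles held 1 culture of every group. A fit with these runs as a block changed 2 member calls: Slc25a20 at 0.5 mM and 48 h (0.24) and Cpt2 over time in water (-0.28) were called with it.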
